A study of Mus musculus with 12 samples.

Results

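The genes described here are those for amino acid transport, for the targets of the transcription factor ATF4 and for tRNA charging, in CD8 T cells of C57BL/6 mice that were taken from spleen, cultured and harvested at day 7. They were chosen as a list of 36 symbols with a minimum of 120 counts summed over the 12 libraries. Of the 36, 35 passed that minimum, and all 35 were among the 14009 genes tested out of 46078 in the count tables. The one below it was Slc7a11, the cystine and glutamate exchanger, with 4 counts in all 12 libraries, and it is not described further. The members fall into 6 stress-response regulators, 8 enzymes of asparagine, serine and one-carbon metabolism, 7 plasma membrane transporters and 14 cytosolic aminoacyl-tRNA synthetases.

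Bulk RNA was sequenced from 4 culture groups with 3 libraries each. All 4 groups received IL-2 and IL-15, cytokines that keep CD8 T cells alive and dividing. One group also received TGFβ and all-trans retinoic acid (TGFβ + RA), one TGFβ, one retinoic acid (RA), and one neither addition (IL-2 + IL-15). TGFβ is a cytokine of barrier tissues, retinoic acid is the vitamin A metabolite that imprints gut homing, and the series title presents the cultures as a route to CD8 Trm cells, memory cells that stay in tissue. No genotype other than the C57BL/6 strain, and no age or dose, is given in the sources used here. The labels number the samples of a group as biological replicates but do not say whether they came from separate animals, so the tests speak of the spread among these libraries, which may be technical.

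ATF4 is a transcription factor whose protein is made mainly when translation initiation is slowed by phosphorylation of eIF2α, for example by the kinase GCN2 when uncharged tRNAs accumulate. It switches on genes for amino acid uptake, asparagine and serine synthesis, mitochondrial one-carbon metabolism and the loading of tRNAs with amino acids, usually through a composite DNA element that it binds with a C/EBP partner. In activated T cells the same genes are raised with growth, because amino acids taken up through transporters such as Slc7a5 keep mTORC1 active. Protein, tRNA charging and amino acid levels were not measured here.

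Library totals ran between 18300206 and 33477037 counts. The 6 CD8 T cell markers (Cd8a, Cd8b1, Cd3e, Cd3d, Cd3g and Trac) were detected in all 12 libraries, and their summed level was 7242 to 7530 CPM (CPM, counts scaled by library size and by the TMM factors of edgeR) in TGFβ + RA, 6487 to 6756 in TGFβ, 3952 to 4212 in RA and 3884 to 4492 in IL-2 + IL-15. Among markers of other cells, the 7 myeloid genes summed to 3.33 to 27.0 CPM in TGFβ + RA, 7.41 to 11.8 in TGFβ, 11.2 to 25.6 in RA and 38.4 to 49.1 in IL-2 + IL-15, with Adgre1 at 0 counts in TGFβ + RA, S100a8 at 0 in the other 3 groups and S100a9 also at 0 in RA and IL-2 + IL-15. The 3 NK cell genes summed to 1.01 to 1.54 CPM in TGFβ + RA, 0.658 to 2.03 in TGFβ, 18.2 to 54.7 in RA and 8.54 to 18.8 in IL-2 + IL-15, and Ncr1 was at 0 in TGFβ. The 3 CD4 T cell genes summed to 26.1 to 31.8 CPM in TGFβ + RA, 29.2 to 35.3 in TGFβ, 73.0 to 90.9 in RA and 66.8 to 74.6 in IL-2 + IL-15, and none of them was at 0 in a whole group. The 5 B cell genes summed to 21.8 to 25.9 CPM in TGFβ + RA, 27.8 to 30.4 in TGFβ, 16.0 to 18.3 in RA and 12.8 to 16.3 in IL-2 + IL-15, with Ms4a1 at 0 in TGFβ + RA, RA and IL-2 + IL-15 and Pax5 at 0 in TGFβ, RA and IL-2 + IL-15, and the 3 erythroid genes summed to at most 0.188 CPM in any library. Several of these sums rested mainly on 1 gene. In the IL-2 + IL-15 libraries Itgam had 1302, 941 and 1350 counts, and no other myeloid gene had more than 4. In the same libraries Zbtb7b (CD4 T cell) had 1589 to 2197 counts, Cd79b (B cell) 336 to 524 and Klrb1c (NK cell) 225 to 451. The sums are therefore not a measure of how many other cells were present. Ribosomal protein genes held 4.14% to 4.72% of counts in TGFβ + RA, 5.01% to 5.22% in TGFβ, 7.87% to 9.06% in RA and 7.73% to 8.27% in IL-2 + IL-15. Apart from the myeloid sum, the sums and the ribosomal share separated the libraries with TGFβ from those without it, as many of the member genes below do, and their part in the results was not tested. RA replicate 3 and IL-2 + IL-15 replicate 1 differed most from the others of their group, and TGFβ + RA replicate 3 was the library with myeloid transcripts such as Lyz2, S100a8 and S100a9.

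In TGFβ + RA cultures 27 of the 35 members were lower than in IL-2 + IL-15 cultures and 3 were higher (edgeR quasi-likelihood test, adjusted p under 0.05 over all genes tested). Of all genes tested, 63.2% were called in that comparison, 32.4% lower and 30.8% higher. The median log2 fold change of the members was -0.44, against 0.0016 over all genes. In TGFβ cultures likewise 27 were lower and 3 higher than in IL-2 + IL-15 cultures, where 43.1% of all genes were called, 22.4% lower and 20.7% higher, with a member median of -0.36. In RA cultures 12 were lower and 1 higher, where 26.7% of all genes were called, 14.3% lower and 12.4% higher, with a member median of -0.10. These 3 comparisons share the IL-2 + IL-15 libraries. In bulk RNA, fewer cells making a transcript and less transcript per cell cannot be told apart.

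Comparing the groups with both additions to those with 1, 25 members were lower and 3 higher in TGFβ + RA than in RA cultures (60.2% of all genes called, 30.8% lower and 29.4% higher), and 15 were lower and 3 higher in TGFβ + RA than in TGFβ cultures (43.0% of all genes called, 22.7% lower and 20.3% higher). The RA effect differed between cultures with and without TGFβ for 8 members (22.9%), with 5 lower and 3 higher in this interaction, against 19.3% of all genes called, 12.3% lower and 6.95% higher, so the members' share was near that of all genes. The members lower in all 3 groups relative to IL-2 + IL-15 numbered 11, and 24 were lower with TGFβ both without and with RA. By group mean, 24 of the 35 were highest in IL-2 + IL-15 and 24 were lowest in TGFβ + RA. These pattern and order counts were made for the members only. Whether they differ from those of all genes was not tested. Sesn2, Psph and Slc38a2 were called in none of the 5 comparisons of 2 groups. With the replicate number as a block, Sesn2 was called lower in RA than in IL-2 + IL-15 cultures (log2 fold change -0.30, edgeR adjusted p = 0.0278) and Ddit3 higher (0.18, edgeR adjusted p = 0.0416), which made 13 members lower and 2 higher there. Without RA replicate 3, IL-2 + IL-15 replicate 1 and TGFβ + RA replicate 3 the counts against IL-2 + IL-15 were 27 lower and 3 higher for TGFβ + RA, 27 and 3 for TGFβ, and 13 and 1 for RA.

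**Figure D1:**
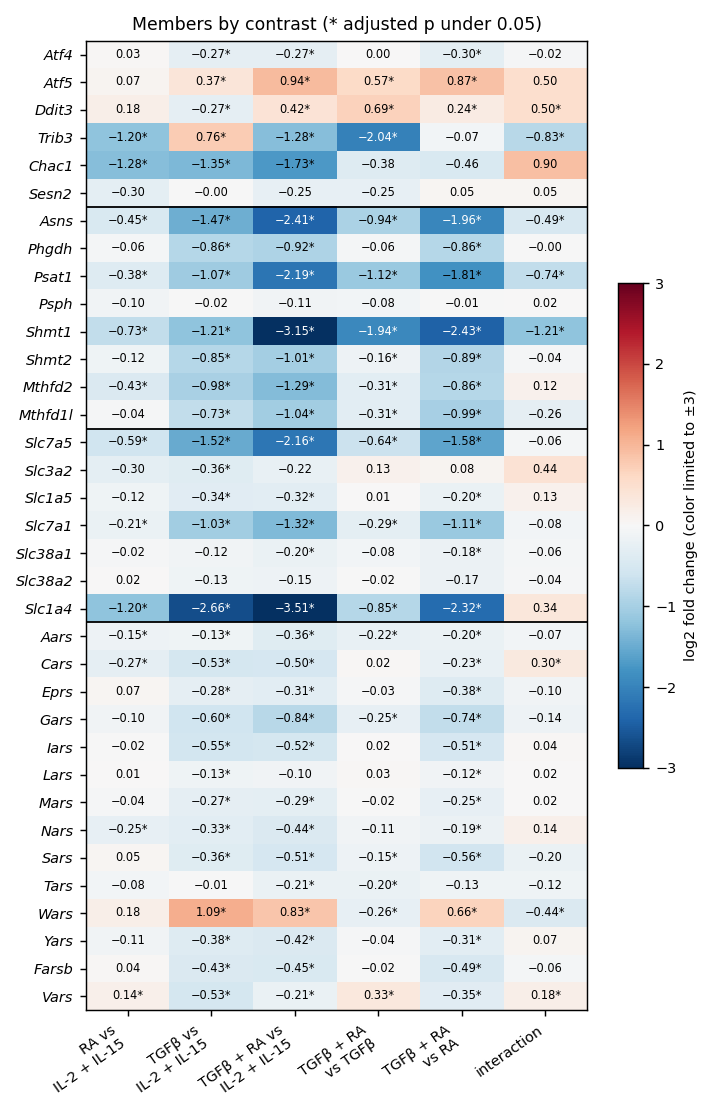
Heat map of the log2 fold change of each of the 35 members (rows, grouped as regulators, enzymes, transporters and synthetases) in the 5 comparisons of 2 groups and the interaction (columns), with an asterisk at an edgeR adjusted p under 0.05 and color limited to 3 in either direction. Blue cells fill the 2 columns of TGFβ and TGFβ + RA against IL-2 + IL-15, where 27 members each were lower, and Atf5, Ddit3, Trib3 and Wars carry the red cells with an asterisk above 0.4.

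Promoters are shown here because many of the members moved together and the element that ATF4 binds with a C/EBP partner is known in several of them. RefSeq promoter windows of 300 bases (GRCm38.p6, from 250 bases before to 50 after the start) were at hand for 27 of the 35 members, with none for Slc7a5, Slc1a5, Slc38a1, Cars, Lars, Nars, Wars and Vars. The core TGATGNAA, read on both strands (TTNCATCA on the other), occurred in 9 of the 27, against 4.51% of 27025 genes with such windows. The 9 were Trib3, Chac1, Asns, Slc1a4, Aars, Gars, Iars, Tars and Yars, and Aars held it at 2 places. The E-box CACGTG, which reads the same on both strands and could overlap that core only by its end letters, occurred in 4 of the 27 and in 8.09% of genes. In TGFβ + RA against IL-2 + IL-15 cultures, all 9 members with the core were lower, with a median log2 fold change of -0.84, and of the 18 without it 12 were lower and 2 higher, with a median of -0.38. In TGFβ against IL-2 + IL-15 cultures 7 of the 9 were lower and 1 higher, and 14 of the 18 without it were lower and 1 higher. The medians there were -0.548 with the core and -0.36 without. In TGFβ + RA against RA cultures the medians were close, at -0.458 with the core and -0.435 without. There 6 of the 9 were lower, and 12 of the 18 were lower and 2 higher. In RA against IL-2 + IL-15 cultures 5 of the 9 and 4 of the 18 were lower, with medians of -0.151 with the core and -0.0512 without. In TGFβ + RA against TGFβ cultures 6 of the 9 were lower, and 7 of the 18 were lower and 2 higher. The medians there were -0.245 with the core and -0.0719 without. The interaction medians were -0.0707 with it and -0.0308 without. A match is only a run of letters and no test was made of these counts or medians. The 4 windows below belong to Trib3 and to Asns, Slc1a4 and Gars. In TGFβ against IL-2 + IL-15 cultures Trib3 was higher, and Asns, Slc1a4 and Gars were lower. The matching core is in capitals, and each window is read 5′ to 3′ along the gene's own strand.
Trib3 (chr2:152344011-152344310, minus strand): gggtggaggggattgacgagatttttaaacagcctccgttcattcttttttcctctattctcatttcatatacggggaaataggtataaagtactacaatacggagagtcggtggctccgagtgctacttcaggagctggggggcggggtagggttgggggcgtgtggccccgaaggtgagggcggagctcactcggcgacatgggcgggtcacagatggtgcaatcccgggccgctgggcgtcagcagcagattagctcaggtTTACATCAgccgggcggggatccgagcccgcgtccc
Asns (chr6:7693160-7693459, minus strand): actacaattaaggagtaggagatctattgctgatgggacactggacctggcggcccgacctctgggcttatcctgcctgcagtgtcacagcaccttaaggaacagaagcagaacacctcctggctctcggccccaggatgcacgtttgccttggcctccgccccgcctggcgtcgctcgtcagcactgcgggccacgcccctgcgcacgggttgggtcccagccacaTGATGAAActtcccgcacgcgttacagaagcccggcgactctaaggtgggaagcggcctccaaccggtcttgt
Slc1a4 (chr11:20332664-20332963, minus strand): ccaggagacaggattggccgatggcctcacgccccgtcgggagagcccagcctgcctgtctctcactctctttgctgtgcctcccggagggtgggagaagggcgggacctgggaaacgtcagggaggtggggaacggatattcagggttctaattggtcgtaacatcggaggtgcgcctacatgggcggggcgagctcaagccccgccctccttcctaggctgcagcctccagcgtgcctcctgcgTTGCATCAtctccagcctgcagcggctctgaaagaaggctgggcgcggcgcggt
Gars (chr6:55037751-55038050, plus strand): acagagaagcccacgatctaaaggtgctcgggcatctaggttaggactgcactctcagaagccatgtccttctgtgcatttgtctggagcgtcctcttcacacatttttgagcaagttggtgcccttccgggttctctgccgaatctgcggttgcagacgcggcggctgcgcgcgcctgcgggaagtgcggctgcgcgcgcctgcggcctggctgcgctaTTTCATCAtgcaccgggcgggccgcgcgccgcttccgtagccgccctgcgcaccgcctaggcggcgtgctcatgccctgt
The first letter of the core lies 23 bases before the start in Asns, 4 before it in Slc1a4, 30 before it in Gars and 15 after it in Trib3. It reads along the gene's strand in Asns and on the opposite strand in the other 3.

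Among the regulators, the transcript of Atf4 itself (GRCm38 chr15:80255184-80257541, plus strand) changed little. Its level was 119, 122 and 118 CPM in TGFβ + RA cultures, 120.3, 122 and 117 in TGFβ cultures, 153, 149 and 139 in RA cultures and 145, 147 and 142 in IL-2 + IL-15 cultures. The 6 libraries with TGFβ lay below the 6 without it, and RA made no visible step in either setting. Atf4 fell in TGFβ + RA against IL-2 + IL-15 cultures (log2 fold change -0.27 ± 0.045 (SE), edgeR adjusted p = 0.000133), in TGFβ against IL-2 + IL-15 cultures (-0.27 ± 0.045, edgeR adjusted p = 0.000267), and in TGFβ + RA against RA cultures (-0.30 ± 0.045, edgeR adjusted p = 7.33e-05). With RA alone, relative to IL-2 + IL-15, the 95% interval of the log2 fold change was -0.078 to 0.13. Because ATF4 protein is set mainly at translation, this transcript level is not a reading of ATF4 activity.

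Trib3 (chr2:152337422-152344032, minus strand), a pseudokinase that is a target of ATF4 and holds it back, showed the widest swing of the regulators and did not follow the other targets. Its level was 7.62, 9.91 and 11.3 CPM in TGFβ + RA cultures, 36.8, 42.3 and 40.2 in TGFβ cultures, 10.2, 10.3 and 10.1 in RA cultures and 20.3, 23.8 and 26.4 in IL-2 + IL-15 cultures. The 3 TGFβ libraries were above all others, the RA libraries with and without TGFβ shared 1 low range, and the IL-2 + IL-15 libraries lay between and overlapped neither. Trib3 rose in TGFβ against IL-2 + IL-15 cultures (log2 fold change 0.76 ± 0.11, edgeR adjusted p = 0.000113). It fell in RA against IL-2 + IL-15 cultures (-1.20 ± 0.12, edgeR adjusted p = 1.09e-05) and in TGFβ + RA against TGFβ cultures (-2.04 ± 0.12, edgeR adjusted p = 1.69e-08). The fall with RA was larger where TGFβ was present, with an interaction of -0.83 ± 0.17 on the log2 scale (edgeR adjusted p = 0.00442). Between TGFβ + RA and RA cultures Trib3 was not called, with a 95% interval of -0.37 to 0.23.

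Ddit3 (chr10:127290774-127296288, plus strand), which encodes the stress factor CHOP, was higher in TGFβ + RA cultures than in any other group mean. Its level was 28.2, 32.8 and 30.8 CPM in TGFβ + RA cultures, 18.7, 19.5 and 19.1 in TGFβ cultures, 25.3, 28.2 and 24.5 in RA cultures and 21.3, 24.1 and 23.4 in IL-2 + IL-15 cultures. The TGFβ libraries were the lowest of all 12 and overlapped no other group, and the TGFβ + RA libraries met the range of the RA libraries at the edge. Ddit3 rose in TGFβ + RA against TGFβ cultures (log2 fold change 0.69 ± 0.077, edgeR adjusted p = 7.84e-06) and against IL-2 + IL-15 cultures (0.42 ± 0.076, edgeR adjusted p = 0.000276). In TGFβ against IL-2 + IL-15 cultures it fell (-0.27 ± 0.077, edgeR adjusted p = 0.0137), a call that did not hold with IL-2 + IL-15 replicate 2 left out (-0.23, edgeR adjusted p = 0.0564). The call in TGFβ + RA against RA cultures (0.24 ± 0.076, edgeR adjusted p = 0.0147) was lost without TGFβ + RA replicate 2, RA replicate 1 or RA replicate 3, with log2 fold changes of 0.18 to 0.20. The interaction was 0.50 ± 0.11 (edgeR adjusted p = 0.00551). Of the Ddit3 exon bases, 4.73% also lie in exons on the opposite strand, mainly of its neighbor Mars, and the strand setting of the counting is not given in the sources used here. A further overlap, of 6.13% of its exon bases, is on the same strand with another gene entry of the same name.

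Atf5 (chr7:44812256-44816658, minus strand), a related factor that acts in the mitochondrial stress response, rose with TGFβ and rose further with both additions. Its level was 20.3, 20.9 and 25.9 CPM in TGFβ + RA cultures, 13.6, 16.5 and 15.1 in TGFβ cultures, 12.2, 12.6 and 11.99 in RA cultures and 10.2, 13.5 and 11.3 in IL-2 + IL-15 cultures. The TGFβ + RA libraries were above all others, the TGFβ libraries came next, and the RA and IL-2 + IL-15 libraries overlapped. The log2 fold change was 0.94 ± 0.12 in TGFβ + RA against IL-2 + IL-15 cultures (edgeR adjusted p = 9.57e-06) and 0.57 ± 0.11 in TGFβ + RA against TGFβ cultures (edgeR adjusted p = 0.00122). In TGFβ against IL-2 + IL-15 cultures it was 0.37 ± 0.12 (edgeR adjusted p = 0.0214), and this call was lost without TGFβ replicate 2, TGFβ replicate 3, IL-2 + IL-15 replicate 1 or IL-2 + IL-15 replicate 3, with values of 0.29 to 0.37. The interaction of 0.50 ± 0.17 lay just outside the threshold (edgeR adjusted p = 0.0525). Atf5 passed in the interaction with no filter on low counts (edgeR adjusted p = 0.0313), with scaling by library totals (edgeR adjusted p = 0.0443) and by the DESeq2 Wald test (adjusted p = 0.0374), with log2 values of 0.49 to 0.52.

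Chac1 (chr2:119351229-119354381, plus strand), an enzyme that breaks down glutathione and a sensitive ATF4 target, was scarce. Its level was 0.159, 0.345 and 0.515 CPM in TGFβ + RA cultures, 0.574, 0.37 and 0.44 in TGFβ cultures, 0.637, 0.414 and 0.428 in RA cultures and 1.24, 1.14 and 1.20 in IL-2 + IL-15 cultures. These values rest on 3 to 14 counts per TGFβ + RA library, 9 to 15 per TGFβ library, 9 to 14 per RA library and 28 to 39 per IL-2 + IL-15 library. All 9 libraries with an addition were below the 3 without. Chac1 fell in TGFβ + RA (log2 fold change -1.73 ± 0.31, edgeR adjusted p = 0.00029), in TGFβ (-1.35 ± 0.30, edgeR adjusted p = 0.00253) and in RA cultures (-1.28 ± 0.30, edgeR adjusted p = 0.00666), each against IL-2 + IL-15. Sesn2, which encodes a sestrin that holds mTORC1 back when leucine is low, averaged 28.2 ± 0.34 CPM in TGFβ + RA, 33.5 ± 1.26 in TGFβ, 27.3 ± 5.47 in RA and 33.6 ± 4.53 in IL-2 + IL-15 cultures (SD, n = 3 each). Its interval in TGFβ + RA against IL-2 + IL-15 cultures was -0.52 to 0.016 (edgeR adjusted p = 0.0735), and it passed there with no filter on low counts (-0.25, edgeR adjusted p = 0.0376) and in the fit to the 6 libraries of that comparison (-0.26, edgeR adjusted p = 0.0271).

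**Figure D2:**
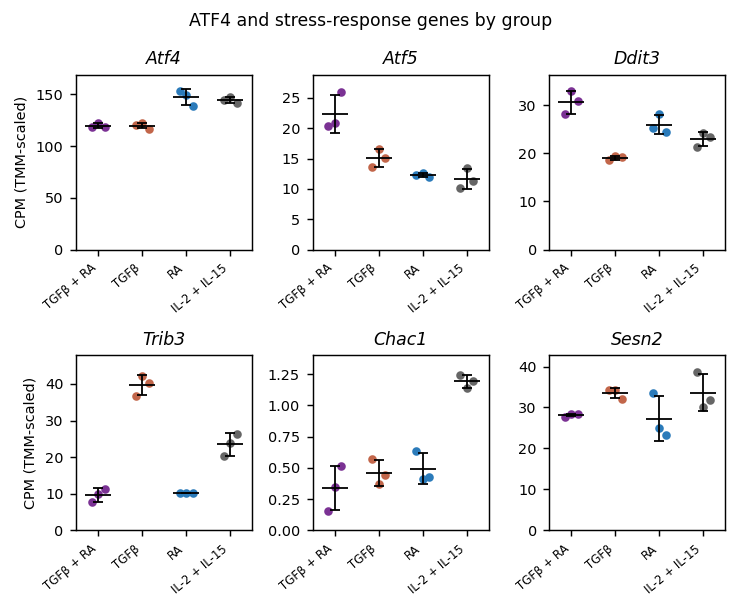
TMM-scaled CPM of the 6 regulators in each library (points), with group mean and SD (black bars), for TGFβ + RA, TGFβ, RA and IL-2 + IL-15 from left to right, with linear axes that start at 0. Trib3 is highest in TGFβ, near 40 CPM, and near 10 CPM in both groups with RA, whereas Atf5 and Ddit3 are highest in TGFβ + RA.

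The biosynthetic enzymes fell in a more uniform way. Of the 8, 7 were lower in TGFβ + RA than in IL-2 + IL-15 cultures, with log2 fold changes of -0.92 to -3.15, 7 were lower in TGFβ cultures (-0.73 to -1.47) and 4 in RA cultures (-0.38 to -0.73). None was higher in any comparison. Of all genes tested, 32.4% were lower in TGFβ + RA, 22.4% in TGFβ and 14.3% in RA against IL-2 + IL-15 cultures. Their summed level was 279 ± 8.2 CPM in TGFβ + RA, 348 ± 2.6 in TGFβ, 554 ± 41.2 in RA and 638 ± 22.1 in IL-2 + IL-15 cultures (SD, n = 3 each). The 4 largest changes were in Shmt1, Asns, Psat1 and Mthfd2, and each of them ran in the same order of group means, lowest in TGFβ + RA, then TGFβ, then RA, with IL-2 + IL-15 highest.

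Asns (chr6:7675169-7693254, minus strand) encodes asparagine synthetase, which makes asparagine from aspartate and glutamine and is a classical ATF4 target. Its level was 7.67, 8.35 and 7.36 CPM in TGFβ + RA cultures, 13.5, 16.0 and 15.5 in TGFβ cultures, 28.7, 33.7 and 28.8 in RA cultures and 40.8, 45.3 and 38.9 in IL-2 + IL-15 cultures. No 2 groups overlapped. Asns fell in TGFβ + RA (log2 fold change -2.41 ± 0.096, edgeR adjusted p = 2.17e-10), in TGFβ (-1.47 ± 0.09, edgeR adjusted p = 3.92e-08) and in RA cultures (-0.45 ± 0.086, edgeR adjusted p = 0.00152), each against IL-2 + IL-15. RA lowered it more in cultures with TGFβ (-0.94 ± 0.10 against TGFβ alone), and the interaction was -0.49 ± 0.13 (edgeR adjusted p = 0.0201). That interaction call was lost without TGFβ + RA replicate 3, TGFβ replicate 2, TGFβ replicate 3 or IL-2 + IL-15 replicate 3, with values of -0.44 to -0.46.

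Serine is made from a glycolytic intermediate by Phgdh, Psat1 and Psph in turn, and these 3 did not move together. Psat1 (chr19:15904678-15947337, minus strand), the aminotransferase of the second step, had 22.6, 22.1 and 21.9 CPM in TGFβ + RA cultures, 49.4, 46.3 and 48.7 in TGFβ cultures, 84.5, 85.5 and 63.6 in RA cultures and 104, 104 and 96.4 in IL-2 + IL-15 cultures. Its 4 groups did not overlap, and the TGFβ + RA libraries were tightly spaced and far below the IL-2 + IL-15 libraries. Psat1 fell in TGFβ + RA (log2 fold change -2.19 ± 0.094, edgeR adjusted p = 3.6e-10) and in TGFβ cultures (-1.07 ± 0.088, edgeR adjusted p = 6.14e-07) against IL-2 + IL-15, and the interaction was -0.74 ± 0.13 (edgeR adjusted p = 0.00121). Its fall in RA against IL-2 + IL-15 cultures (-0.38 ± 0.087, edgeR adjusted p = 0.00523) was -0.24 without RA replicate 3 (edgeR adjusted p = 0.00205).

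Phgdh, the dehydrogenase of the first step, averaged 78.2 ± 5.43 CPM in TGFβ + RA, 81.7 ± 2.20 in TGFβ, 142 ± 7.19 in RA and 148 ± 13.3 in IL-2 + IL-15 cultures (SD, n = 3 each). It fell with TGFβ by similar amounts without and with RA (-0.86 ± 0.068 in TGFβ against IL-2 + IL-15 and -0.86 ± 0.068 in TGFβ + RA against RA cultures), and its interaction interval was -0.22 to 0.22. Psph, the phosphatase of the last step, stayed between 27.6 and 32.2 CPM in all 12 libraries. Its log2 fold change in TGFβ + RA against IL-2 + IL-15 cultures had an interval of -0.24 to 0.031, which lies outside the changes of Psat1, and 10.4% of its exon bases also lie in exons of Cct6a on the opposite strand.

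Serine feeds the one-carbon cycle through the hydroxymethyltransferases Shmt1 in the cytosol and Shmt2 in mitochondria. Shmt1 (chr11:60788104-60811718, minus strand) had the largest change of any enzyme here, with 2.43, 2.01 and 2.32 CPM in TGFβ + RA cultures, 8.58, 8.64 and 8.53 in TGFβ cultures, 11.01, 13.4 and 11.6 in RA cultures and 22.9, 18.5 and 18.3 in IL-2 + IL-15 cultures. The TGFβ + RA libraries were far below all others, and no 2 groups overlapped. Shmt1 fell in TGFβ + RA (log2 fold change -3.15 ± 0.13, edgeR adjusted p = 2.5e-10), in TGFβ (-1.21 ± 0.11, edgeR adjusted p = 1.31e-06) and in RA cultures (-0.73 ± 0.11, edgeR adjusted p = 0.000218), each against IL-2 + IL-15. In TGFβ + RA against TGFβ cultures its log2 fold change was -1.94 ± 0.13, and the interaction of -1.21 ± 0.17 was the largest of the 8 called (edgeR adjusted p = 0.000273).

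Shmt2, with its mitochondrial partners Mthfd2 and Mthfd1l, which carry the one-carbon unit on to formate, changed less than Shmt1. Shmt2 averaged 74.3 ± 1.06 CPM in TGFβ + RA, 83.1 ± 2.20 in TGFβ, 138 ± 6.87 in RA and 150.1 ± 5.90 in IL-2 + IL-15 cultures (SD, n = 3 each). Per kilobase of exon its mean level was 23.9 CPM, against 0.580 for Shmt1, in TGFβ + RA cultures, and 48.3 against 5.13 in IL-2 + IL-15 cultures. The mitochondrial enzyme was thus the more abundant transcript of the pair in both groups. Mthfd2 (chr6:83305691-83325908, minus strand) had 28.4, 28.7 and 30.4 CPM in TGFβ + RA cultures, 35.5, 38.2 and 34.6 in TGFβ cultures, 53.1, 57.5 and 48.6 in RA cultures and 69.9, 75.3 and 68.9 in IL-2 + IL-15 cultures. No 2 groups overlapped, and the fall was -1.29 ± 0.066 in TGFβ + RA, -0.98 ± 0.065 in TGFβ and -0.43 ± 0.064 in RA cultures against IL-2 + IL-15 (edgeR adjusted p = 1.86e-09, 8.73e-08 and 0.000266). Mthfd1l fell in TGFβ + RA (-1.04 ± 0.087) and in TGFβ cultures (-0.73 ± 0.086) and was not called in RA cultures, with an interval of -0.24 to 0.15. The smaller RA effects within TGFβ cultures on Shmt2 (-0.16) and Mthfd1l (-0.31) were called, but Shmt2 lost its call without TGFβ + RA replicate 1 or 2 or TGFβ replicate 1 or 3, and Mthfd1l lost its call without TGFβ replicate 2 (values -0.15 and -0.25).

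The transporters divided into 3 that fell strongly and 4 that changed little. Of the 7, 5 were lower in TGFβ + RA than in IL-2 + IL-15 cultures, 5 in TGFβ cultures and 3 in RA cultures, and none was higher in any comparison. The shares lower among all genes tested were 32.4% for TGFβ + RA, 22.4% for TGFβ and 14.3% for RA. Slc7a5 (chr8:121881150-121907694, minus strand) encodes LAT1, the light chain of the carrier that brings leucine and other large neutral amino acids into activated T cells. Its level was 21.2, 23.6 and 24.5 CPM in TGFβ + RA cultures, 36.5, 37.4 and 34.8 in TGFβ cultures, 71.9, 72.0 and 63.4 in RA cultures and 98.3, 107 and 106 in IL-2 + IL-15 cultures. No 2 groups overlapped. Slc7a5 fell in TGFβ + RA (log2 fold change -2.16 ± 0.068, edgeR adjusted p = 2.76e-11), in TGFβ (-1.52 ± 0.066, edgeR adjusted p = 1.7e-09) and in RA cultures (-0.59 ± 0.063, edgeR adjusted p = 1.76e-05), each against IL-2 + IL-15. RA changed it by -0.64 in the presence of TGFβ and -0.59 in its absence, with an interaction interval of -0.27 to 0.16.

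Slc3a2, the heavy chain (CD98) that LAT1 needs to reach the surface and that also pairs with other light chains, did not follow it. Its level was 117, 114 and 109 CPM in TGFβ + RA cultures, 98.7, 108 and 103 in TGFβ cultures, 106, 105 and 112 in RA cultures and 112, 172 and 113 in IL-2 + IL-15 cultures. IL-2 + IL-15 replicate 2 stood above the other 11 libraries, which lay between 98.7 and 117 CPM. Slc3a2 was called lower in TGFβ against IL-2 + IL-15 cultures (log2 fold change -0.36 ± 0.12, edgeR adjusted p = 0.0322), but without IL-2 + IL-15 replicate 2 the value was -0.13 (edgeR adjusted p = 0.092). The call was also lost without any 1 of the 3 TGFβ libraries, with values of -0.33 to -0.39. Per kilobase of exon the mean of Slc7a5 was 6.23 CPM and that of Slc3a2 32.1 CPM in TGFβ + RA cultures, and 28.0 and 37.5 CPM in IL-2 + IL-15 cultures.

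Slc1a4 (chr11:20302180-20332713, minus strand), which encodes the neutral amino acid carrier ASCT1, had the largest fold change of all 35 members but a low level. Its level was 0.212, 0.659 and 0.699 CPM in TGFβ + RA cultures, 1.11, 1.07 and 0.841 in TGFβ cultures, 2.41, 3.20 and 2.71 in RA cultures and 6.57, 7.00 and 5.62 in IL-2 + IL-15 cultures. The TGFβ + RA values rest on 4 to 21 counts per library, and the IL-2 + IL-15 values on 172 to 183. No 2 groups overlapped. Slc1a4 fell in TGFβ + RA (log2 fold change -3.51 ± 0.25, edgeR adjusted p = 5.07e-08), in TGFβ (-2.66 ± 0.23, edgeR adjusted p = 1.04e-06) and in RA cultures (-1.20 ± 0.21, edgeR adjusted p = 0.000729), each against IL-2 + IL-15. The call in TGFβ + RA against TGFβ cultures (-0.85 ± 0.31, edgeR adjusted p = 0.0387) was lost without TGFβ + RA replicate 1 (-0.57, edgeR adjusted p = 0.0947), TGFβ replicate 1 (-0.78) or TGFβ replicate 2 (-0.81).

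Slc7a1 (chr5:148327410-148399904, minus strand), the main carrier of arginine and lysine in many cells, had 34.8, 33.4 and 37.9 CPM in TGFβ + RA cultures, 42.2, 43.6 and 43.9 in TGFβ cultures, 72.6, 80.0 and 76.5 in RA cultures and 83.9, 92.4 and 88.8 in IL-2 + IL-15 cultures. The libraries with TGFβ were well below those without, and no 2 groups overlapped. Slc7a1 fell in TGFβ + RA (log2 fold change -1.32 ± 0.059, edgeR adjusted p = 4.88e-10) and in TGFβ cultures (-1.03 ± 0.058, edgeR adjusted p = 1.78e-08) against IL-2 + IL-15. The smaller fall in RA against IL-2 + IL-15 cultures (-0.21 ± 0.056, edgeR adjusted p = 0.0138) did not hold with RA replicate 1 or IL-2 + IL-15 replicate 2 left out, with values of -0.16 and -0.17.

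The carriers of glutamine and other small neutral amino acids changed little. Slc1a5, which encodes ASCT2, had the highest level per kilobase of all members in every group, at 86.4 CPM in TGFβ + RA, 85.7 in TGFβ, 99.4 in RA and 108 in IL-2 + IL-15 cultures. It fell in TGFβ + RA (-0.32 ± 0.071, edgeR adjusted p = 0.00128) and in TGFβ cultures (-0.34 ± 0.071, edgeR adjusted p = 0.00173) against IL-2 + IL-15. Slc38a1 averaged 212 ± 6.16 CPM in TGFβ + RA and 244 ± 16.0 CPM in IL-2 + IL-15 cultures (SD, n = 3 each), a log2 fold change of -0.20 ± 0.051 (edgeR adjusted p = 0.00373). Slc38a2, which is induced by amino acid shortage in many cells, averaged 215 ± 18.03 CPM in TGFβ + RA and 238 ± 19.4 CPM in IL-2 + IL-15 cultures (SD, n = 3 each). The interval of its log2 fold change was -0.35 to 0.055, so a fall of the size seen for Slc7a5 or Slc7a1 lies outside it.

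**Figure D3:**
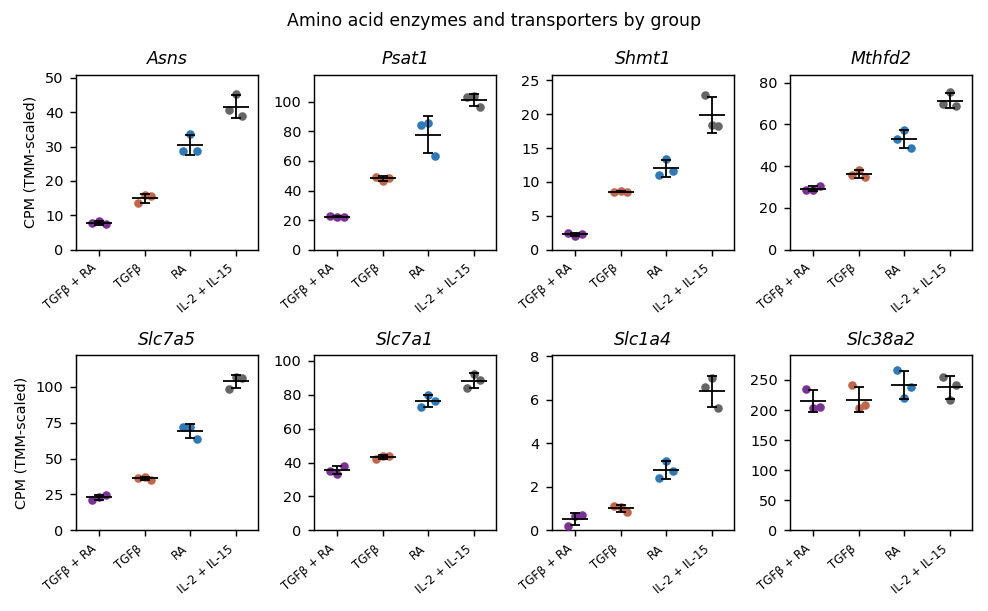
TMM-scaled CPM of 4 enzymes (top) and 4 transporters (bottom) in each library (points), with group mean and SD (black bars), for TGFβ + RA, TGFβ, RA and IL-2 + IL-15 from left to right, with linear axes that start at 0. Asns, Psat1, Shmt1, Mthfd2, Slc7a5, Slc7a1 and Slc1a4 climb stepwise from the TGFβ + RA group to the IL-2 + IL-15 group without overlap, whereas the 4 groups of Slc38a2 overlap.

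The aminoacyl-tRNA synthetases, which load each amino acid onto its tRNA, mostly fell by small amounts with TGFβ. Of the 14, 12 were lower and 1 was higher in TGFβ + RA than in IL-2 + IL-15 cultures, and the same counts held in TGFβ cultures and in TGFβ + RA against RA cultures. In RA cultures 3 were lower (Aars, Cars and Nars) and 1 was higher (Vars). That share called was 28.6%, near the 26.7% of all genes tested. Of all genes, 32.4% were lower in TGFβ + RA and 22.4% in TGFβ against IL-2 + IL-15 cultures. In TGFβ + RA against RA cultures 30.8% of all genes were lower. Where the synthetases fell with TGFβ + RA the log2 fold changes were -0.21 to -0.84 against IL-2 + IL-15. Their summed level was 1627 ± 19.7 CPM in TGFβ + RA, 1650.1 ± 22.8 in TGFβ, 1995 ± 36.6 in RA and 1991 ± 43.4 in IL-2 + IL-15 cultures (SD, n = 3 each). All 6 libraries with TGFβ lay below the 6 without it, and the ranges of TGFβ + RA and TGFβ overlapped, as did those of RA and IL-2 + IL-15.

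Gars (chr6:55038007-55079500, plus strand), the glycyl-tRNA synthetase, fell most. Its level was 95.1, 99.3 and 100.5 CPM in TGFβ + RA cultures, 116, 119 and 115 in TGFβ cultures, 171, 178 and 144 in RA cultures and 182, 175 and 171 in IL-2 + IL-15 cultures. The TGFβ + RA libraries were below the TGFβ libraries, and both were below all RA and IL-2 + IL-15 libraries, which overlapped. Gars fell in TGFβ + RA (log2 fold change -0.84 ± 0.066, edgeR adjusted p = 1.19e-07) and in TGFβ cultures (-0.60 ± 0.066, edgeR adjusted p = 7.99e-06) against IL-2 + IL-15. Iars, the isoleucyl enzyme, had 107, 106 and 106 CPM in TGFβ + RA cultures, 102, 106 and 105 in TGFβ cultures, 153, 152 and 148 in RA cultures and 146, 156 and 156 in IL-2 + IL-15 cultures. The 2 groups with TGFβ overlapped each other and lay below the 2 groups without it, which also overlapped. Its log2 fold changes were -0.52 ± 0.041 in TGFβ + RA and -0.55 ± 0.041 in TGFβ cultures against IL-2 + IL-15 (edgeR adjusted p = 1.13e-07 and 2.66e-07), with an interval of -0.11 to 0.076 for RA.

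Sars, the seryl enzyme, had 126, 129 and 132 CPM in TGFβ + RA cultures, 142, 139 and 149 in TGFβ cultures, 203, 193 and 177 in RA cultures and 181, 189 and 183 in IL-2 + IL-15 cultures. All 6 libraries with TGFβ were below the 6 without it. Sars fell in TGFβ + RA (-0.51 ± 0.053, edgeR adjusted p = 1.58e-06) and in TGFβ cultures (-0.36 ± 0.052, edgeR adjusted p = 9e-05) against IL-2 + IL-15. Cars, the cysteinyl enzyme, had 32.6, 31.7 and 34.0 CPM in TGFβ + RA cultures, 31.3, 31.7 and 33.6 in TGFβ cultures, 37.3, 39.2 and 38.5 in RA cultures and 46.2, 49.3 and 43.8 in IL-2 + IL-15 cultures. The 2 groups with TGFβ overlapped, RA was above them and IL-2 + IL-15 was highest. RA lowered Cars where TGFβ was absent (-0.27 ± 0.056, edgeR adjusted p = 0.00238) and changed it by 0.024 ± 0.057 where TGFβ was present, which was not called. The interaction of 0.30 ± 0.08 (edgeR adjusted p = 0.0185) was lost without TGFβ + RA replicate 3, TGFβ replicate 1, RA replicate 1 or IL-2 + IL-15 replicate 2, with values of 0.24 to 0.28.

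Wars (chr12:108860030-108894174, minus strand), the tryptophanyl enzyme and one that interferon-γ is known to induce, went the other way. Its level was 161, 149.9 and 149 CPM in TGFβ + RA cultures, 168, 194 and 187 in TGFβ cultures, 93.5, 91.9 and 106 in RA cultures and 77.8, 90.5 and 89.2 in IL-2 + IL-15 cultures. The TGFβ libraries were the highest, the TGFβ + RA libraries came next, and both lay above all RA and IL-2 + IL-15 libraries. Wars rose in TGFβ + RA (log2 fold change 0.83 ± 0.075, edgeR adjusted p = 4.19e-07) and in TGFβ cultures (1.09 ± 0.075, edgeR adjusted p = 1.17e-07) against IL-2 + IL-15. In the presence of TGFβ, RA lowered it (-0.26 ± 0.073, edgeR adjusted p = 0.0121), a call that was lost without TGFβ replicate 2 (-0.21, edgeR adjusted p = 0.0578). The interaction was -0.44 ± 0.10 (edgeR adjusted p = 0.0108).

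Vars, the valyl enzyme, had the highest level per kilobase of the synthetases in all 4 groups, at 72.1 CPM in TGFβ + RA, 57.5 in TGFβ, 91.7 in RA and 83.1 in IL-2 + IL-15 cultures. In each library it had 400.2, 394 and 419 CPM in TGFβ + RA cultures, 319, 324 and 325 in TGFβ cultures, 508, 516 and 519.6 in RA cultures and 462, 472 and 465 in IL-2 + IL-15 cultures. No 2 groups overlapped. Vars fell in TGFβ + RA (-0.21 ± 0.04, edgeR adjusted p = 0.000566) and in TGFβ cultures (-0.53 ± 0.041, edgeR adjusted p = 3.17e-07) against IL-2 + IL-15, and it rose with RA in the presence of TGFβ (0.33 ± 0.041, edgeR adjusted p = 2.13e-05). The rise in RA against IL-2 + IL-15 cultures (0.14 ± 0.04, edgeR adjusted p = 0.019) had the same size with IL-2 + IL-15 replicate 3 left out but no longer passed (0.14, edgeR adjusted p = 0.0564). The interaction of 0.18 ± 0.057 (edgeR adjusted p = 0.0388) was lost when any 1 library other than TGFβ + RA replicate 2 or RA replicate 3 was left out, with values of 0.15 to 0.19.

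The other 8 synthetases were Aars, Eprs, Lars, Mars, Nars, Tars, Yars and Farsb. Against IL-2 + IL-15 their log2 fold changes ran between -0.45 (Farsb) and -0.10 (Lars) in TGFβ + RA cultures, where Lars was not called, and between -0.43 (Farsb) and -0.0051 (Tars) in TGFβ cultures, where Tars was not called. Several of these calls lay close to the threshold, and leaving out 1 library ended them with little change in the fold. In TGFβ against IL-2 + IL-15 cultures, Aars lost its call when any 1 TGFβ library, or replicate 1 or 2 of IL-2 + IL-15, was left out (log2 fold changes of -0.097 to -0.14, against -0.13 with all 12 libraries). Lars lost its call without TGFβ replicate 1 or 2 or IL-2 + IL-15 replicate 2 or 3 (-0.10 to -0.13, against -0.13). In RA cultures, Aars lost its call without any 1 RA library or without IL-2 + IL-15 replicate 1 or 2 (-0.10 to -0.15, against -0.15). Tars in TGFβ + RA against IL-2 + IL-15 cultures was lost without TGFβ + RA replicate 2 (-0.16, edgeR adjusted p = 0.0809). Of the exon bases of Aars, 14.3% are shared with Exosc6 on the same strand, and 9.47% of those of Farsb lie opposite exons of Sgpp2. The corresponding opposite-strand share was 4.74% for Shmt1 and 4.11% for Atf5.

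**Figure D4:**
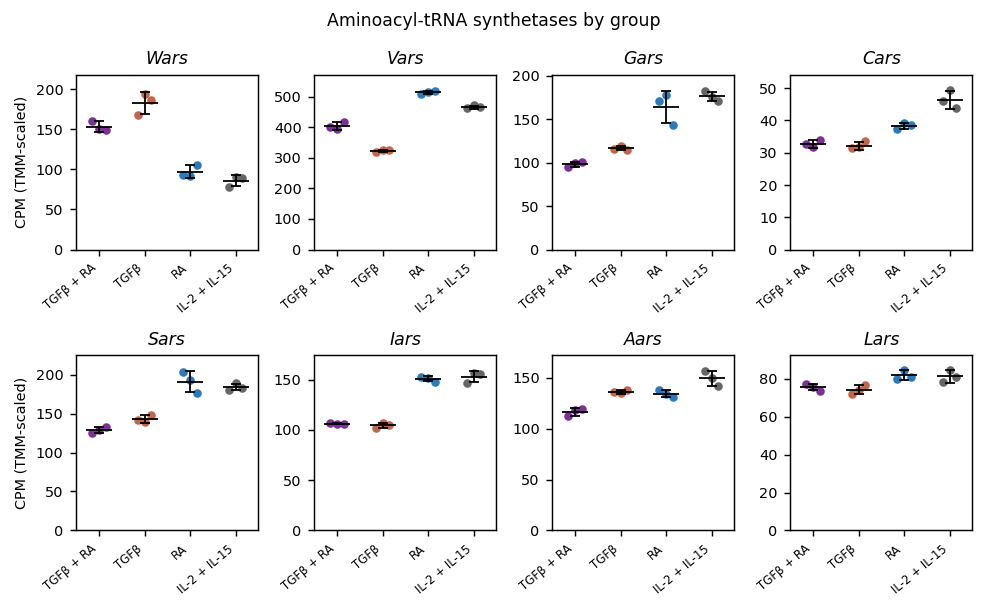
TMM-scaled CPM of 8 of the 14 synthetases in each library (points), with group mean and SD (black bars), for TGFβ + RA, TGFβ, RA and IL-2 + IL-15 from left to right, with linear axes that start at 0. Wars is above 140 CPM in all 6 libraries with TGFβ and under 110 CPM in the 6 without, while Gars, Iars and Sars are lower in the libraries with TGFβ.

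Genes of the same pathways outside the member list were read beside them. In TGFβ + RA against IL-2 + IL-15 cultures, 63.2% of all genes tested were called, 32.4% lower and 30.8% higher. The counts of each list in that comparison, here and above, are to be read against these shares. The remaining cytosolic synthetases and synthetase complex factors had 8 of 9 lower and none higher in TGFβ + RA against IL-2 + IL-15 cultures. They included Dars, the aspartyl enzyme (62.7 ± 1.37 CPM in TGFβ + RA and 106 ± 5.21 in IL-2 + IL-15, SD, n = 3 each, log2 fold change -0.75 ± 0.061), and the scaffold genes Aimp2 (-0.77 ± 0.079) and Eef1e1 (-0.72 ± 0.097). The 17 mitochondrial synthetases were mixed, with 6 lower and 7 higher and a median of 0.060. Wars2, the tryptophanyl enzyme of mitochondria, rose (0.35 ± 0.067, edgeR adjusted p = 0.000489). Lars2, the leucyl enzyme, fell (-0.84 ± 0.08, edgeR adjusted p = 8.15e-07) and stood at 1319 ± 74.6 CPM in TGFβ + RA and 2364 ± 184.6 CPM in IL-2 + IL-15 cultures (SD, n = 3 each). That level was far above those of the other mitochondrial synthetases, such as Tars2 at 92.1 CPM in TGFβ + RA cultures. The handling of reads with several matches is not given, and whether all Lars2 reads belong to this transcript was not tested.

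Of 18 further ATF4 target genes 13 were tested, and in TGFβ + RA against IL-2 + IL-15 cultures 11 were lower and 1 was higher, with a median log2 fold change of -0.86. Atf3, an immediate stress factor, averaged 1.03 ± 0.2 CPM in TGFβ + RA, 7.03 ± 1.15 in TGFβ, 7.03 ± 0.29 in RA and 11.6 ± 2.25 in IL-2 + IL-15 cultures (SD, n = 3 each). The fall of -3.51 ± 0.20 with both additions (edgeR adjusted p = 4.21e-09) exceeded the sum of the single effects, with an interaction of -2.07 ± 0.26 (edgeR adjusted p = 0.000109). Stc2, which encodes the secreted glycoprotein stanniocalcin, did likewise (-2.76 ± 0.12 in TGFβ + RA against IL-2 + IL-15 cultures, interaction -1.29 ± 0.16, edgeR adjusted p = 9.83e-05). Gpt2, the mitochondrial alanine aminotransferase, fell by 1.85 on the log2 scale in the same comparison (edgeR adjusted p = 1.3e-06), and its interaction was not called.

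The remaining folate and methionine cycle enzymes had 11 of 16 lower and 2 higher in TGFβ + RA against IL-2 + IL-15 cultures. Gcat, which acts on threonine-derived carbon, had a log2 fold change of -1.64 ± 0.11, and Atic, which ends purine ring synthesis, had -1.48 ± 0.039 (edgeR adjusted p = 2.19e-08 and 5.07e-12). Of 16 other amino acid transporters tested, 7 were higher and 2 lower. The share called was 56.2%, below the 63.2% of all genes. Slc43a1 and Slc43a2 encode LAT3 and LAT4, carriers of leucine and other large neutral amino acids that need no heavy chain. Slc43a1 averaged 14.2 ± 1.496 CPM in TGFβ + RA and 2.69 ± 0.53 CPM in IL-2 + IL-15 cultures, and Slc43a2 averaged 179 ± 6.48 and 95.3 ± 12.5 CPM in the same groups (SD, n = 3 each). Their log2 fold changes were 2.40 ± 0.24 and 0.91 ± 0.084 (edgeR adjusted p = 1.39e-06 and 6.12e-07). Slc16a10, a carrier of aromatic amino acids, rose in TGFβ + RA (1.66 ± 0.16) and in RA cultures (2.50 ± 0.16), each against IL-2 + IL-15 (edgeR adjusted p = 1.17e-06 and 1.86e-07).

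Upstream of ATF4, the genes for eIF2α kinases, its phosphatase and eIF2B were mixed, with 5 of 14 lower and 4 higher in TGFβ + RA against IL-2 + IL-15 cultures. Their share called was 64.3%, near the 63.2% of all genes. Eif2ak3, which encodes the endoplasmic reticulum kinase PERK, rose in RA (0.50 ± 0.10, edgeR adjusted p = 0.0028) and fell in TGFβ + RA cultures (-0.61 ± 0.10, edgeR adjusted p = 0.000178) against IL-2 + IL-15. Eif2b3, of the eIF2B complex, and Eif2s1, which encodes eIF2α, fell in TGFβ + RA cultures (-0.65 ± 0.093 and -0.57 ± 0.098, edgeR adjusted p = 3.61e-05 and 0.000195). Endoplasmic reticulum chaperone and unfolded protein genes were split, with 10 of 20 lower and 6 higher, and the named falls were those of Pdia4 (-0.66 ± 0.062), Hsp90b1 (-0.59 ± 0.045) and the sensor Atf6 (-0.56 ± 0.092).

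Among 23 genes by which mTORC1 senses amino acids, 11 were higher and 3 lower in TGFβ + RA against IL-2 + IL-15 cultures. Their share called was 60.9%, near the 63.2% of all genes. The arginine sensor gene Castor1 is listed in the count tables as Gatsl3. It averaged 10.4 ± 1.01 CPM in TGFβ + RA and 34.8 ± 3.57 CPM in IL-2 + IL-15 cultures (SD, n = 3 each) and fell by 1.74 on the log2 scale (edgeR adjusted p = 6.39e-09). Of the Rag GTPases that dock mTORC1 at the lysosome, Rragb fell (-1.54 ± 0.16, edgeR adjusted p = 2.16e-06) and Rragd rose (1.19 ± 0.096, edgeR adjusted p = 1.6e-07). Rragd averaged 23.9 ± 1.81 CPM in TGFβ + RA, 35.1 ± 1.07 in TGFβ, 4.44 ± 0.85 in RA and 10.5 ± 0.27 in IL-2 + IL-15 cultures (SD, n = 3 each).

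**Figure D5:**
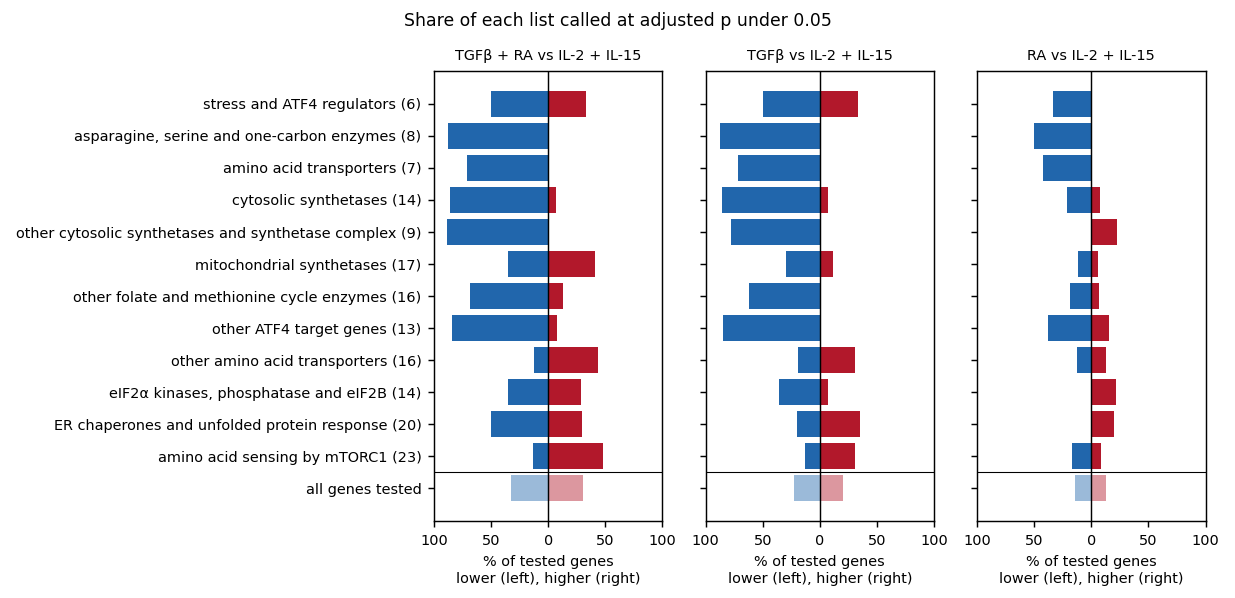
Percent of tested genes called lower (blue, to the left) and higher (red, to the right) at an edgeR adjusted p under 0.05 in each member list and companion list (number tested in parentheses), for TGFβ + RA, TGFβ and RA against IL-2 + IL-15, with all genes tested in the bottom row. In TGFβ + RA cultures all lists except the other transporters and the mTORC1 sensing genes reach left past the 32.4% of all genes. The enzyme, member transporter, cytosolic synthetase and other ATF4 target lists reach furthest left. Mitochondrial synthetases, other transporters and mTORC1 sensing genes reach further right than left.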

How the data were processed

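Bulk RNA libraries were made with a stranded mRNA kit, per the labels' protocols. The authors deposited whole-number read counts per gene for each of the 12 samples, made with STAR and featureCounts on GRCm38, per the submitters' processing notes; tool versions, annotation, strand setting and the handling of reads with several matches are not given in the sources used here. Gene symbols were those in the count tables, with symbols absent there matched through RefSeq synonyms. Coordinates and exon overlaps came from GENCODE on GRCm38. The counts were tested with edgeR 4.0.16 in R 4.3.3: filterByExpr with a minimum count of 10, TMM scaling, a quasi-likelihood fit with 1 mean per group over all 12 libraries (8 residual degrees of freedom), and Benjamini-Hochberg adjustment over 14009 genes, called at an adjusted p under 0.05. The interaction is the RA effect with TGFβ minus that without. CPM were computed from the deposited counts, and SE and 95% intervals belong to the log2 fold change. The SE was derived from the test statistic. The intervals use only the 8 residual degrees of freedom, so they can be wider than the edgeR p-values imply. Totals of 18300206 to 33477037 counts per library set the precision, and genes with few counts, such as Chac1 and Slc1a4, are the least precise. Alternatives were other scalings, no filter, DESeq2 1.42.0, a replicate block, fits to the 6 libraries of a contrast, and each library left out; a fit to 9 libraries was added after seeing the data. Values in every library are given for Atf4, for the 4 called members of each list with the largest change, and for members called in the interaction. From each of the 8 companion lists, the text names at most 3 called genes, those that changed most in TGFβ + RA against IL-2 + IL-15 among genes averaging 5 CPM or more. Same-numbered RA and IL-2 + IL-15 libraries deviated together (r of 0.341, 0.13 and 0.271 for replicates 1, 2 and 3), a hint of pairing from the data and not from the labels. Unless an alternative is named, all values come from the fit without a replicate block, also for that comparison. A few genes that this rule names are not reported here. Members and lists were chosen with earlier results of these data known. The procedure was tested on simulated data.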

Additional observations from a re-analysis of the deposited data

Results flagged for a closer look

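The RA effect differed between cultures with and without TGFβ, by the interaction test, for 8 of 35 members (22.9%), near the 19.3% of all genes called in that test, and each is given as the log2 RA effect with TGFβ minus that without. RA lowered Shmt1 (-1.21), Trib3 (-0.83), Psat1 (-0.74) and Asns (-0.49) more where TGFβ was present. Wars had an interaction of -0.44, with an RA effect of -0.26 with TGFβ and 0.18 without it, where it was not called. Ddit3 had 0.50, with RA effects of 0.69 with TGFβ and 0.18 without it, where it was not called. Cars had 0.30 and Vars 0.18, the smallest of the 8. The interactions of Asns, Cars and Vars were each lost when single libraries were left out, and no cause was tested for any of the 8.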

How the results depend on the processing

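Of the 127 called member fold changes, 2296 of 2405 values under the 19 alternatives kept their call, 109 lost it and none turned direction. The losses fell on 23 pairs of member and comparison, and 22 uncalled pairs gained a call in at least 1 alternative. The 1 member higher in RA against IL-2 + IL-15 (Vars) became 0 with no filter on low counts and 0 in the fit to the 6 libraries of the contrast, and 0 to 2 with 1 library left out. The interaction called 2702 genes, 2040 to 4158 with 1 library left out (4158 without RA replicate 3) and 4224 in the fit to 9 libraries that was added after seeing the data. Of these, 974 were higher, 583 to 1654 with 1 library left out (583 without RA replicate 2, 627 without IL-2 + IL-15 replicate 2, 1654 without RA replicate 3) and 1718 with 9 libraries. Members higher in the interaction numbered 3, 1 to 4 with 1 library left out (1 without TGFβ + RA replicate 3, TGFβ replicate 1, RA replicate 1 or IL-2 + IL-15 replicate 2), and members lower numbered 5, 4 to 8 (8 without RA replicate 3). The cause was not tested. With scaling by library totals the median log2 fold change of all genes was at most 0.0817. That value was in TGFβ + RA against RA, where the median was -0.0028 with TMM. Scaling by library totals lost the calls of Slc1a5, Slc38a1, Lars and Nars in TGFβ + RA against RA. It also lost those of Slc3a2, Aars and Lars in TGFβ against IL-2 + IL-15, and of Tars in TGFβ + RA against IL-2 + IL-15.

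Over all comparisons, 10 of 18 same-numbered pairs of libraries had a correlation of deviations over 0.1 (-0.00391 to 0.341), and all 12 libraries correlated best with their own number, as a hint from the data. Every pair passed in RA against IL-2 + IL-15, and in no other comparison of 2 groups tested. The main values there are still unpaired, and the replicate block was run as an alternative for all comparisons. A replicate block lost 0 member calls and gained 8: Ddit3 and Sesn2 in RA against IL-2 + IL-15, Slc38a2 in TGFβ against IL-2 + IL-15 (-0.13, edgeR adjusted p = 0.0282), in TGFβ + RA against RA (-0.17, 0.00518) and against IL-2 + IL-15 (-0.15, 0.01), Sesn2 in TGFβ + RA against TGFβ (-0.24, 0.0496) and against IL-2 + IL-15 (-0.24, 0.0371), and Atf5 in the interaction (0.49, 0.0333). The counts under the block were 2 members higher in RA against IL-2 + IL-15, 3072 genes called in the interaction, and 29 members lower in TGFβ + RA against IL-2 + IL-15. At low depth, the TGFβ + RA values of Chac1 and Slc1a4 rest on 28 and 44 counts over 3 libraries, which limits their fold changes.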
